A study of Mus musculus with 22 samples.

Results

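The interleukin-1 (IL-1) family genes described here are the agonist cytokines Il1a and Il1b, the receptor antagonist Il1rn, the signalling receptor Il1r1, its co-receptor Il1rap and the decoy receptor Il1r2. They were found by gene symbol in a table of 13392 genes, of which 13242 carried a symbol. Of the 7 genes named for the family, 6 had a row in the table, and Il18 was not analysed here. The family was chosen by its log2 expression differences between the groups on these same arrays, among them that of Il1a under nintedanib. The levels and the 3 group comparisons of its members are therefore given as descriptions without p-values.

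IL-1 alpha and IL-1 beta are proinflammatory cytokines that bind the same receptor, encoded by Il1r1, which signals after it recruits the accessory protein encoded by Il1rap. IL-1 beta is made as an inactive precursor that caspase-1 cleaves in inflammasomes, whereas the IL-1 alpha precursor is already active and acts as an alarm signal when cells die. In liver, macrophages are a known source of both cytokines, and hepatocytes answer them with acute phase proteins.

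The study measured 1 array of non-tumour liver, from 20 mg of frozen tissue, for each of 22 male C57BL/6J mice. The 3 control mice (titled 4, 49 and 50) had healthy liver after injections of saline and oil, and were given vehicle. The other mice carried a chemical model of fibrosis and liver cancer, made by 1 dose of N-nitrosodiethylamine (DEN) and then carbon tetrachloride (CCl4) every week. Of these, 9 (76 to 81 and 92 to 94) received vehicle and 10 (82 to 91) received nintedanib, an inhibitor of VEGF, PDGF and FGF receptor kinases, at 50 mg/kg, each for 5 weeks. Every liver therefore came from an animal injected either with toxin or with its solvents, and no healthy mouse received nintedanib. The labels state that animals were killed at several time points and name no batch. Pck1 and Tat, both hepatocyte genes, were the only 2 of 15 listed hepatocyte markers with a row, so the tissue label could be checked on them alone. Their summed level on the linear scale was 1881 to 3276 over the 22 mice.

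Values are log2 expression as normalized by the authors, and the median of all genes on an array was 2.83 to 3.09. The arrays of nintedanib mice 89 and 91 were the least like the others (median r over genes of 0.950 and 0.948, against 0.957 to 0.975 for the remaining arrays). The mice also fell into 2 sets by title number that differed in clock genes. Dbp, a clock output gene, was at 5.04 to 6.07 in vehicle mice 76 to 81, at 6.19 in nintedanib mouse 82 and at 8.79 to 9.27 in mice 83 to 94, and the controls were at 5.13 to 6.18. The nintedanib group thus had 9 of its 10 mice in the set 83 to 94, the vehicle group 3 of 9. Comparisons are given over all mice, within mice 83 to 94, and with the set as a block, and the boundary of the sets was taken from these data. Control mice have title numbers apart from both sets, so set and control state cannot be told apart there.

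Il1a and Il1b lie next to each other on chromosome 2 as neighbouring protein-coding genes. Il1r2 and Il1r1 are neighbours on chromosome 1, followed by the related receptor genes Il1rl2, Il1rl1 and Il18r1. The 250 bases before the transcription start of both agonist genes are shown because these were the members with the lowest values under nintedanib relative to vehicle. They are RefSeq sequences of build GRCm38.p6, read 5′ to 3′ on the minus strand, from chr2:129309973-129310222 for Il1a and chr2:129371140-129371389 for Il1b. Capitals mark TATAAA, the core letters of a TATA box, and TGANTCA, the letters of an AP-1 element.
Il1a: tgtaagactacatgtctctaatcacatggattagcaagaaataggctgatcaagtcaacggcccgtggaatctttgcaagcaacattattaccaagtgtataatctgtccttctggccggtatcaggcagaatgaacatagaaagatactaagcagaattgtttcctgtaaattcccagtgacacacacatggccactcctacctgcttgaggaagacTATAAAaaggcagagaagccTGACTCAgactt
Il1b: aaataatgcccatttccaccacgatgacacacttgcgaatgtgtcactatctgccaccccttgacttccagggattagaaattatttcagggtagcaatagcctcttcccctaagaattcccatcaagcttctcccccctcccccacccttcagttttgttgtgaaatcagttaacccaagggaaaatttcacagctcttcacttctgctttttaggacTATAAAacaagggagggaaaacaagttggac
Both windows held TATAAA, beginning 32 bases before the start of Il1a and 31 bases before that of Il1b. Among 32536 RefSeq mouse windows of 250 bases, 12.3% held these letters on either strand. The Il1a window also held TGANTCA, which was in 6.73% of windows, and the Il1b window did not. Neither window held an NF-kB motif (GGG and TTCC with 3 bases between, 4.65% of windows), TTGCNNAA (a C/EBP motif, 9.57%) or CACGTG (an E-box, 6.04%) on either strand. In the Il1a window the letters of TATAAA and TGANTCA do not overlap. Of the other members, Il1rn and Il1r1 held the NF-kB motif in the window of 1 of their start sites, beginning 51 and 232 bases before it. At another start site Il1rn held TGANTCA, 141 bases before it, and Il1r1 held TTGCNNAA, 133 bases before it, and Il1r2 held 2 copies of CACGTG. A match is a description of the letters, and a missing match says nothing of the factors.

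Il1a, which encodes the alarm cytokine IL-1 alpha, had its lowest levels in nintedanib mice. Its level was 5.44, 4.81 and 5.49 in controls 4, 49 and 50. In vehicle mice 76 to 81 it was 5.48, 5.12, 5.32, 5.62, 6.03 and 5.80, and in vehicle mice 92 to 94 it was 5.55, 5.47 and 5.50. In nintedanib mice 82 to 91 it was 5.46, 5.11, 4.82, 4.70, 4.20, 4.82, 4.45, 3.19, 4.71 and 4.13. Of the nintedanib mice, only mouse 82 lay within the range of the vehicle mice, so the groups overlapped through this mouse. Mouse 83 lay just below the lowest vehicle mouse, 77, and the other 8 lay further below.

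In group means, Il1a was 5.54 ± 0.26 (SD, n = 9) in vehicle mice, 5.24 ± 0.37 (n = 3) in controls and 4.56 ± 0.62 (n = 10) in nintedanib mice. The difference of nintedanib from vehicle was -0.98 ± 0.20 (log2, SE of the limma fit), a 1.98-fold lower level. Vehicle and control mice, neighbours in this order, differed by 0.30 ± 0.29, and control and nintedanib mice by -0.69 ± 0.28, each pair with overlapping ranges. Vehicle and nintedanib mice were set apart by more than the SD of either group.

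Il1a was further described within the sets of title numbers. Vehicle mice 92 to 94 were at 5.50 ± 0.04 and vehicle mice 76 to 81 at 5.56 ± 0.33, a difference of -0.06 ± 0.28 (limma adjusted p = 0.990). That comparison, unlike the treatment comparison, was not used to choose the gene. Within mice 83 to 94 the nintedanib mice averaged 1.05 ± 0.27 less than the vehicle mice, and the groups did not overlap, with 5.11 as the highest nintedanib and 5.47 as the lowest vehicle level. Of all genes, 0.5% had nintedanib mice wholly below vehicle mice in this set, and nothing is read from this, since the comparison chose the gene. With the set as a block the difference was -0.79 ± 0.24. Mouse 82 differed from vehicle mice 76 to 81 by -0.10, as 1 mouse with no spread of its own. Mouse 89, at 3.19, was the lowest of all and its array was 1 of the 2 least like the others. Without mice 89 and 91 the difference was -0.76.

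**Figure D1:**
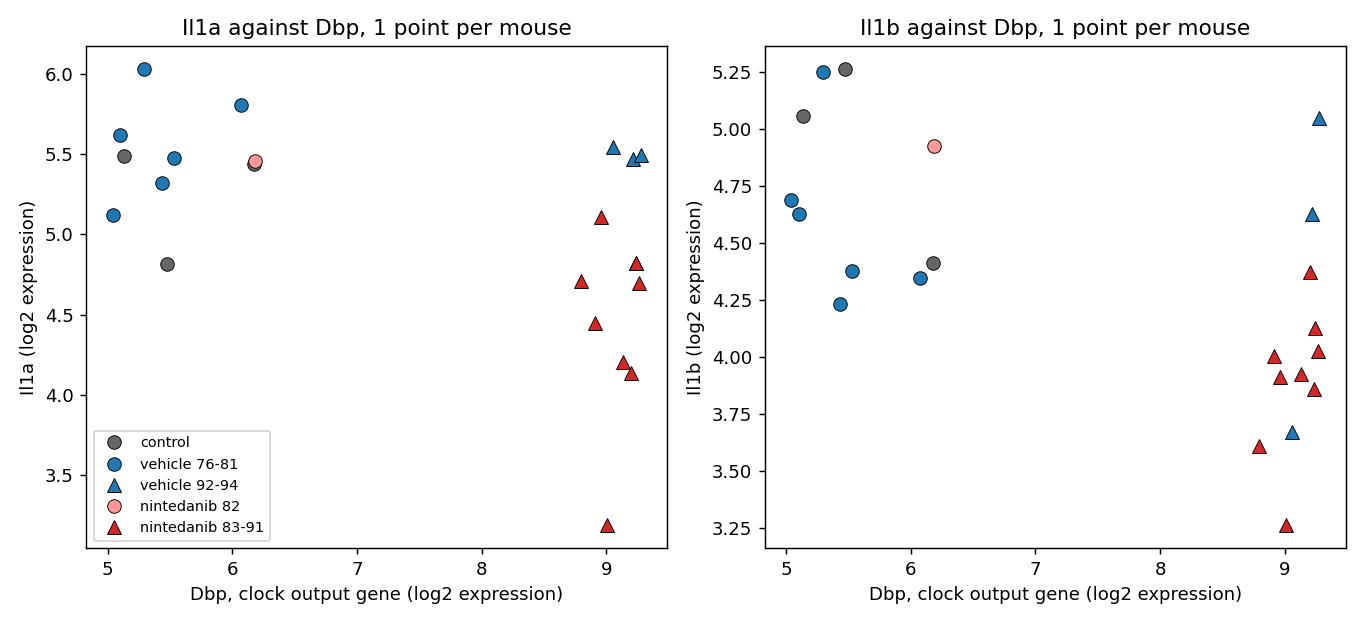
Level of Il1a (left) and Il1b (right) against the clock output gene Dbp, all in log2 expression, with 1 point per mouse. Circles are controls, vehicle mice 76 to 81 and nintedanib mouse 82, and triangles are mice 92 to 94 (vehicle) and 83 to 91 (nintedanib). At Dbp of 8.79 and above the 9 nintedanib mice lie at or below 5.11 in Il1a and the 3 vehicle mice at or above 5.47, while in Il1b vehicle mouse 92 lies among the nintedanib mice.

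Il1b, the inflammasome-processed agonist, was highest in controls and lowest in nintedanib mice. Controls were at 4.41, 5.26 and 5.06, a mean of 4.91 ± 0.44 (SD, n = 3). The vehicle mice ran from 3.67 (mouse 92) through a median of 4.63 to 5.25 (mouse 80), with a mean of 4.54 ± 0.46 (n = 9). The nintedanib mice ran from 3.26 (mouse 89) through a median of 3.97 to 4.92 (mouse 82), with a mean of 4.0 ± 0.44 (n = 10). All neighbouring groups overlapped, and the highest nintedanib value was again that of mouse 82.

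Nintedanib and vehicle mice differed in Il1b by -0.54 ± 0.19, nintedanib mice and controls by -0.91 ± 0.27, and vehicle mice and controls by -0.37 ± 0.27. The last 2 comparisons share the 3 control mice. Within mice 83 to 94 the treatment difference was -0.55 ± 0.25, and with the set as a block it was -0.30 ± 0.22, a value over 1.5 times smaller than over all mice. Mouse 82 was 0.34 above the mean of vehicle mice 76 to 81. The vehicle mice of the 2 sets differed by -0.14 ± 0.26 (limma adjusted p = 0.978).

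Il1rn encodes the receptor antagonist, which occupies the receptor without signalling. It was at 3.39, 3.35 and 3.31 in controls, from 3.18 to 3.80 in vehicle mice (median 3.50) and from 3.15 to 3.88 in nintedanib mice (median 3.50). The 3 ranges overlapped almost entirely, and the control values lay inside both others. The means were 3.35 ± 0.04, 3.45 ± 0.21 and 3.49 ± 0.26, and nintedanib and vehicle mice differed by 0.04 ± 0.10. Within mice 83 to 94 they differed by 0.17. Vehicle mice 92 to 94 and 76 to 81 differed by -0.14 ± 0.15 (limma adjusted p = 0.936).

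Il1r1, the signalling receptor, lay above 96.1% of all genes in mean level on these arrays. Controls were at 7.06, 6.71 and 6.65, a mean of 6.81 ± 0.22 (SD, n = 3). Vehicle mice ran from 6.51 to 7.37 with a mean of 6.89 ± 0.27, and nintedanib mice from 6.71 to 7.67 with a mean of 7.22 ± 0.35. Mice 82, 84 and 85 were the only mice above the highest vehicle value, and the groups overlapped otherwise. Nintedanib mice were 0.32 ± 0.13 above vehicle mice, 0.46 ± 0.19 within mice 83 to 94 and 0.50 ± 0.16 with the set as a block, so the sign was opposite to that of Il1a and Il1b in each. Mouse 82, which did not have the low agonist levels, was 0.60 above vehicle mice 76 to 81 in Il1r1. Vehicle mice 92 to 94 and 76 to 81 differed by -0.26 ± 0.20 (limma adjusted p = 0.872).

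Il1rap, the co-receptor, was highest in controls, as was Il1b. Controls were at 4.69, 4.20 and 4.40 (mean 4.43 ± 0.24), vehicle mice from 3.95 to 4.30 (mean 4.12 ± 0.12) and nintedanib mice from 3.95 to 4.51 (mean 4.16 ± 0.18). Only control 49 lay within the vehicle range. Vehicle mice differed from controls by -0.31 ± 0.12, and nintedanib from vehicle mice by 0.04 ± 0.08. The difference from controls was -0.18 without control 4 and -0.43 without control 49, so it depended on which control mice were kept.

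Il1r2, the decoy receptor that binds IL-1 without signalling, was near the middle of all genes in level. Its mean was 2.81 ± 0.20 in controls, 2.81 ± 0.28 in vehicle mice and 2.78 ± 0.15 in nintedanib mice. None of the 10 nintedanib values lay above the median of its own array, so these values give little room for a lower level to be seen. The 3 groups differed by 0.00 to 0.03 in size, below the spread of each group. Within mice 83 to 94 nintedanib mice differed from vehicle mice by 0.20 and with the set as a block by 0.08, so the sign turned from that over all mice. Vehicle mice 92 to 94 differed from vehicle mice 76 to 81 by -0.34 ± 0.15 (limma adjusted p = 0.501). Mouse 93, the lowest of all at 2.16, is 1 of only 3 vehicle mice in the set 83 to 94. Without it the vehicle sets differed by -0.12.

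**Figure D2:**
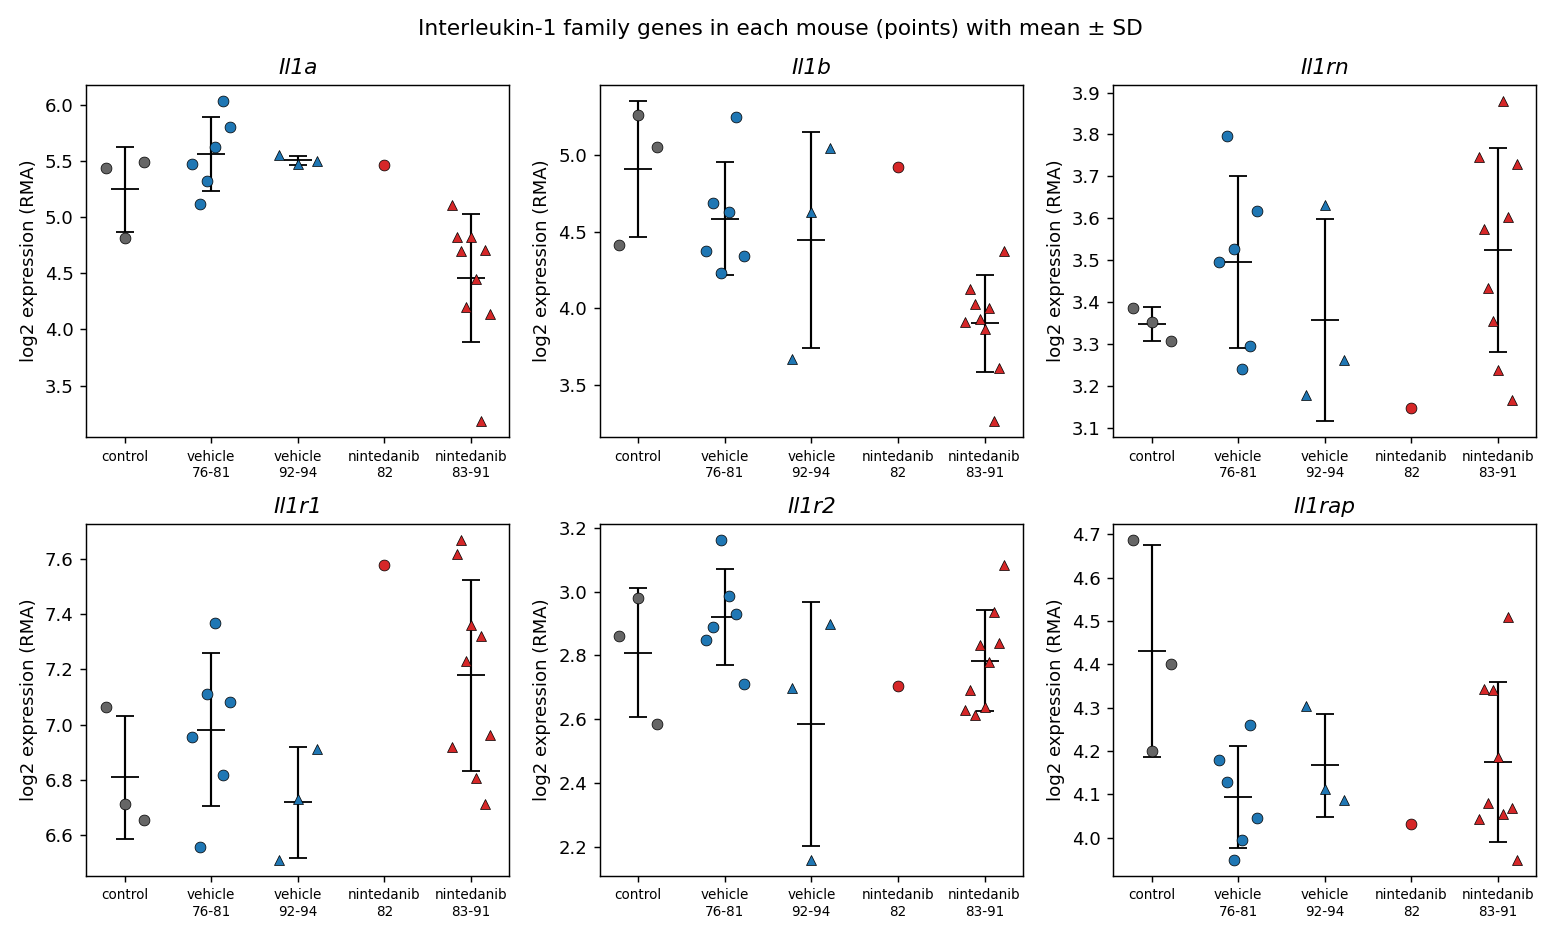
Log2 expression of the 6 genes in every mouse (points), split by group and by title number, with bars for mean ± SD where a set holds over 1 mouse. Il1a of nintedanib mice 83 to 91 (3.19 to 5.11) lies below the vehicle mice 92 to 94 (5.47 to 5.55), and nintedanib mouse 82 lies at 5.46. Axes differ between panels.

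Read as counts over all genes, 0 of 6 members passed an adjusted p of 0.05 between vehicle and control mice in limma. Of all genes, 2.52% passed there. In that comparison 1 member was at an unadjusted p under 0.05, as were 1868 of all 13392 genes. Between nintedanib and vehicle mice 1 of 6 passed, Il1a, where 0.687% of all genes passed and 0.276% were lower. Between nintedanib and control mice 1 of 6 passed, Il1b, where 5.85% passed and 2.99% were lower. The call of Il1b was lost in 15 of 22 fits with 1 mouse left out. Since the members were chosen with these comparisons known, nothing is read from these counts. The medians of the 6 differences were 0.04, 0.00 and -0.15, and those of all genes -0.02, 0.01 and -0.00. Between the 2 sets of vehicle mice, which did not serve to choose the members, 0 of 6 passed against 1.11% of all genes. There 1 member was at an unadjusted p under 0.05, as were 1088 of all 13392 genes. With the set as a block, 0 of 6 passed between nintedanib and vehicle mice, where 0.0373% of all genes passed. At an unadjusted p under 0.05 were 2 members and 675 of all 13392 genes.

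**Figure D3:**
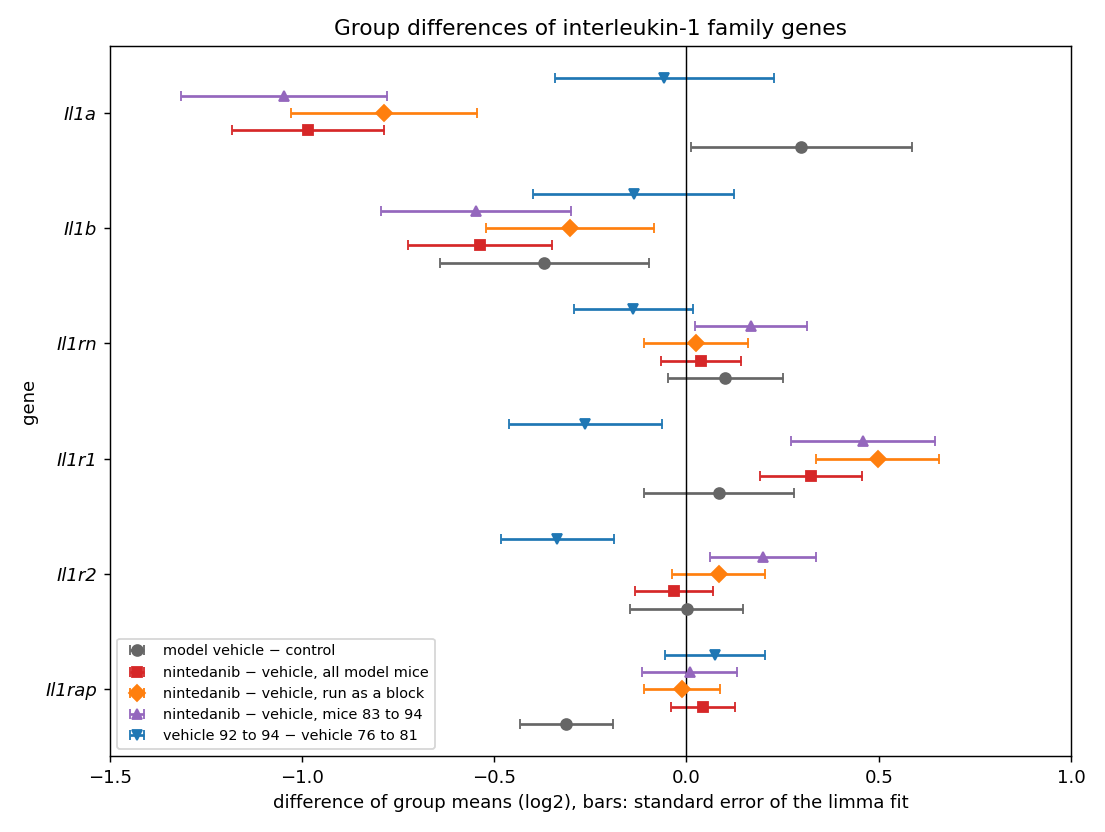
Differences of group means (log2, horizontal axis) for each gene (vertical axis), with bars for the SE of the limma fit, in 5 comparisons given by marker. For Il1a the 3 nintedanib comparisons lie between -1.05 and -0.79 and the comparison of the 2 sets of vehicle mice at -0.06, while for Il1r1 the nintedanib comparisons lie between 0.32 and 0.50.

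Genes around the family were taken from 4 lists drawn up with earlier results of these data known, and were tested in the fit over all 13392 genes. Their calls in the 3 group comparisons are therefore descriptions. Of all genes, 1868, 1417 and 2275 were at an unadjusted p under 0.05 in limma for vehicle against control, nintedanib against vehicle and nintedanib against control. The first holds the other ligands and receptors of the family, such as Il33, the IL-36 cytokines and the receptors of IL-18 and IL-33. Of 13 measured among 14 listed, 0 passed in any of the 3 group comparisons in limma (1, 0 and 0 at an unadjusted p under 0.05 for vehicle against control, nintedanib against vehicle and nintedanib against control), and the medians of their differences were 0.01, 0.02 and 0.05. Il33, an alarm cytokine, was at 4.02 ± 0.46 in controls, 4.25 ± 0.29 in vehicle mice and 4.22 ± 0.46 in nintedanib mice. Il18r1, a chain of the IL-18 receptor, differed by -0.22 ± 0.17 between nintedanib and vehicle mice (limma adjusted p = 0.713). Il1f6, the old symbol of an IL-36 gene, differed by -0.32 ± 0.15 between vehicle and control mice (limma adjusted p = 0.355).

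The inflammasome list holds the sensors, adaptor and proteases that process IL-1 beta. Of 20 measured among 29 listed, 0 passed between vehicle and control mice or between nintedanib and vehicle mice in limma, with 4 at an unadjusted p under 0.05 in each. Casp1, the protease that cleaves IL-1 beta, was 0.36 ± 0.16 above controls in vehicle mice (limma adjusted p = 0.292). Casp4, which encodes caspase-11, the sensor of intracellular lipopolysaccharide in mice, was 0.54 ± 0.24 above controls (limma adjusted p = 0.285). Nlrp6, another gene of this list, went the other way in the same comparison, at -0.29 ± 0.12 (limma adjusted p = 0.242). Nlrp3, the best known inflammasome sensor, was at 3.02 in both model groups. This lies within the range of the array medians and gives little room for a lower level to be seen.

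Nlrp12, a sensor protein known to restrain NF-kB signalling, was the gene of this list that passed a test. It was at 7.54 ± 0.57 in controls, 6.93 ± 0.62 in vehicle mice and 6.24 ± 0.45 in nintedanib mice, and fell by 1.30 ± 0.32 between control and nintedanib mice (limma adjusted p = 0.0136). It also fell by 1.13 ± 0.26 from vehicle mice 76 to 81 to vehicle mice 92 to 94 (limma adjusted p = 0.0328). Within mice 83 to 94 its treatment difference was 0.03. The call against controls was lost without control 4 (-1.25, adjusted p = 0.0802) or control 50 (-1.04, adjusted p = 0.152), and the call between the vehicle sets without any of mice 78, 79, 80, 92, 93 or 94 (adjusted p up to 0.183). Between the same vehicle sets Il1a differed by -0.06.

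Of the genes that relay the signal of the receptor, 10 of 26 listed were measured. In limma 0 passed between vehicle and control mice and 0 between nintedanib and vehicle mice, with 0 and 3 at an unadjusted p under 0.05. Irak2, a kinase that acts after MyD88, was at 6.47 ± 0.27 in controls, 6.26 ± 0.30 in vehicle mice and 5.79 ± 0.24 in nintedanib mice. It fell by 0.69 ± 0.17 between control and nintedanib mice (limma adjusted p = 0.0149), a call lost without control 4 (-0.70, adjusted p = 0.0669) or control 50 (-0.55, adjusted p = 0.166). Between nintedanib and vehicle mice it differed by -0.47 ± 0.12 (limma adjusted p = 0.0624), with adjusted p of 0.0224 to 0.0464 when mouse 82, 92, 93 or 94 was left out. Vehicle mice 92 to 94 differed from 76 to 81 by -0.50 ± 0.16 (limma adjusted p = 0.206), and within mice 83 to 94 the treatment difference was -0.15.

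The list of IL-1 and NF-kB responsive genes holds chemokines, adhesion molecules, acute phase proteins and feedback inhibitors, 32 of 35 of them measured. Between nintedanib and vehicle mice 3 rose and 0 fell, and the 3 did not include the chemokines or NF-kB inhibitors of the list. They were Cebpb (0.67 ± 0.08, limma adjusted p = 9.979e-05), Cebpd (0.79 ± 0.14, limma adjusted p = 0.00727) and Vcam1 (0.42 ± 0.09, limma adjusted p = 0.0177). Cebpb and Cebpd encode C/EBP transcription factors, which act in acute phase and metabolic programmes, and Vcam1 encodes an adhesion molecule for leukocytes. With the set as a block, where 0.0373% of all genes passed, Cebpb and Cebpd passed and Vcam1 did not (0.31, limma adjusted p = 0.570). In a limma fit of mice 83 to 94 alone, 0 of all genes passed, and so none of the 3 did. There Cebpb was at 0.77 (limma adjusted p = 0.0938), Cebpd at 0.94 (adjusted p = 0.285) and Vcam1 at 0.29 (adjusted p = 0.955). Over all 31 alternatives, Cebpb and Cebpd each passed in 30 and Vcam1 in 29. Since the list was drawn up with earlier results of these data known, nothing is read from these calls. The median difference of the list was 0.02, against 0.01 over all genes.

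Vcam1 was also the 1 responsive gene of 32 that rose between control and vehicle mice (0.57 ± 0.13, limma adjusted p = 0.0104). Its level went from 5.22 to 5.70 in controls to 5.91 to 6.48 in vehicle mice. That call was lost without control 4 (0.44, adjusted p = 0.155) or control 50 (0.60, adjusted p = 0.0505). Icam1, a related adhesion molecule, was 0.80 ± 0.22 above controls (limma adjusted p = 0.0527). Cxcl1, a neutrophil-attracting chemokine, was at 6.28 ± 0.54 in controls, 6.00 ± 0.60 in vehicle mice and 6.04 ± 1.35 in nintedanib mice. The nintedanib mice thus spread from 4.91 to 8.57 in Cxcl1 with no shift of the mean beyond that spread.

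**Figure D4:**
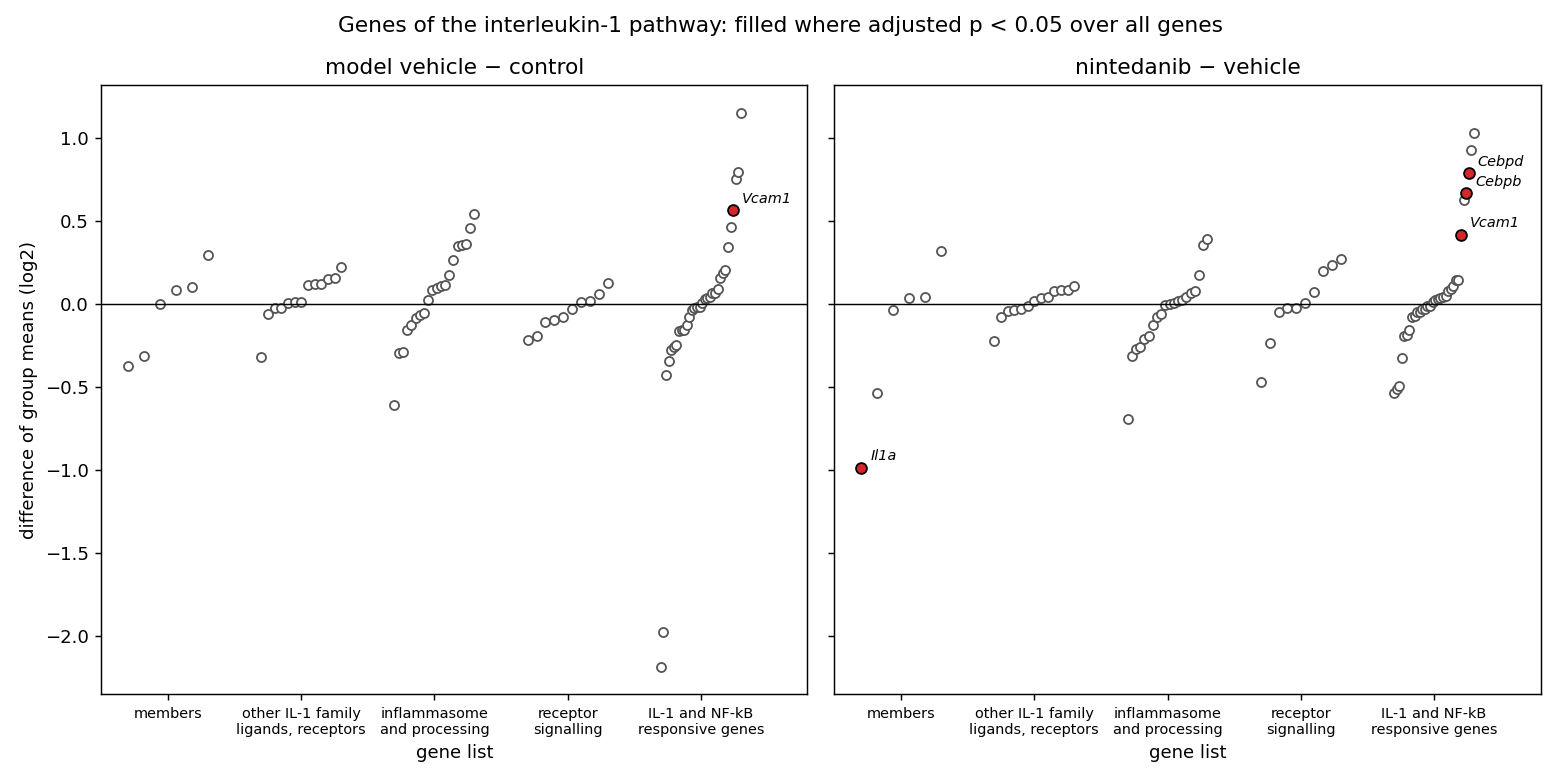
Differences of group means (log2, vertical axis) for the 6 members and for the genes of the 4 lists, 1 point per gene, with vehicle minus control mice on the left and nintedanib minus vehicle mice on the right. Filled points passed an adjusted p of 0.05 over all genes. On the left this is Vcam1, and on the right Cebpb, Cebpd, Vcam1 and the member Il1a. Nothing is read from the filled point of Il1a, since the comparison chose the gene. The lists were drawn up with earlier results of these data known, so the other filled points are descriptions.

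Cell markers are given beside the members because a sample of whole liver cannot tell fewer cells of a type from less RNA per cell. Monocyte and injury macrophage markers (13 of 15 measured) had a summed linear level of 831 to 1250 in controls, 1430 to 2312 in vehicle mice and 1379 to 2680 in nintedanib mice. Of them 6 rose from control to vehicle mice, with Gpnmb at 2.33 and Lgals3 at 1.07, and 0 passed in limma between nintedanib and vehicle mice (1 at an unadjusted p under 0.05), where their median was -0.07. The neutrophil markers (14 of 16) summed to 150 to 182 in controls, 256 to 455 in vehicle mice and 197 to 448 in nintedanib mice. S100a8 (1.93) and S100a9 (1.35) rose from control to vehicle mice, and 0 of 14 passed in limma between nintedanib and vehicle mice (2 unadjusted). The sums of both lists did not overlap between vehicle and control mice. Of all genes taken singly, 2.49% lay wholly higher in vehicle mice and 2.27% wholly lower.

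Kupffer cell markers (7 of 10), which mark the resident liver macrophages, summed to 946 to 1166 in controls, 671 to 1527 in vehicle mice and 540 to 769 in nintedanib mice. Cd163 fell from control to vehicle mice (-0.88), and no other marker of this list was called there. Marco went the other way, at 1.72 ± 0.51 (limma adjusted p = 0.0683), as did Adgre1 at 0.49, and C6 was at -0.61. Timd4, Clec4f and Folr2 were at 0.02, -0.01 and -0.08. Between nintedanib and vehicle mice 1 fell, C6 (-0.65, limma adjusted p = 0.0280), and the median was -0.44 over all model mice and -0.06 within mice 83 to 94. Within mice 83 to 94 these sums were 671 to 831 with vehicle and 540 to 769 with nintedanib. The differences of single Kupffer cell markers there ran from -0.54 (Timd4) and -0.42 (C6) to 0.20 (Cd163), and none was called. Endothelial markers (9 of 13) summed to 385 to 475 with vehicle and 320 to 396 with nintedanib, and Cldn5 fell (-0.61, limma adjusted p = 0.0320). Of 8 B and plasma cell markers 1 fell, Jchain (-0.73, limma adjusted p = 0.0475). With the set as a block these calls were lost, at -0.61 for C6 (adjusted p = 0.542), -0.53 for Cldn5 (adjusted p = 0.597) and -0.47 for Jchain (adjusted p = 0.933). In the unblocked fit 0 of 16 T and NK cell, 0 of 11 stellate cell and 0 of 7 cholangiocyte markers passed in that comparison (2, 1 and 1 unadjusted in limma). From control to vehicle mice 5 of 11 stellate cell, 3 of 8 B and plasma cell, 2 of 9 endothelial and 1 of 16 T and NK cell markers rose. The part of these markers in the levels of the members was not tested.

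The members varied to different degrees between mice of the same group and set. The SD of Il1a within these was 0.45, larger than that of 96.4% of all genes, and that of Il1b was 0.41, larger than that of 94.4%. Il1rn, Il1r2 and Il1rap lay at 41.4%, 33.1% and 17.5%. Correlations between members were computed for 15 pairs in nintedanib mice 83 to 91 (9 mice) and in vehicle mice 76 to 81 (6 mice), and 0 of 15 passed after adjustment in each. The strongest among nintedanib mice was that of Il1a with Il1r2, with Pearson r = -0.72 (2-sided exact permutation p = 0.0276, adjusted 0.414) and Spearman rho = -0.72 (exact permutation p = 0.0369, adjusted 0.553). It was -0.70 without the 2 mice farthest from the median of Il1a. Il1a and Il1b, the 2 agonists, had r = 0.48 among nintedanib mice (exact permutation p = 0.196, adjusted 0.588) with rho = 0.02, and r was -0.04 without the 2 farthest mice, so that relation rested on them.

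The genes most like each member were found by Pearson r after the mean of the own group and set was subtracted, over 21 mice and 11950 genes. They share arrays and their technical variation, so these values are descriptions. For Il1a they included Crebrf (r = 0.83) and Rassf6 (r = 0.80), which were at 0.68 and 0.60 without mice 89 and 91. For Il1b they were Rph3al, Paxx and Endou, each at 0.73. For Il1rn the leading gene was Ptgs2 (0.82), the inducible prostaglandin synthase, which was itself at 2.02 to 2.36 in nintedanib mice and so below the array medians. For Il1r1 it was Pgbd1 (0.80), for Il1r2 Bmp7 (0.83) and for Il1rap Ctif (0.81). No member was among the 3 genes most like another member.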

How the data were processed

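Liver RNA of 22 mice was measured on HT MG-430 arrays (Affymetrix). Per the series' design text, the authors normalized the arrays by the robust multiarray algorithm with probes mapped to Entrez genes, and the deposited values are log2 expression, 1 row per gene. Gene symbols came from RefSeq, matched by the Entrez id of each row, for 13242 of 13392 rows. Each comparison was fitted in limma 3.58.1 (R 4.3.3) over all genes, with 3 group means over all 22 arrays sharing 1 spread, or with 5 means where the sets of title numbers were separated. The Benjamini-Hochberg method adjusted p over all genes, and adjusted p under 0.05 is a call. The members and lists were chosen with earlier results of these data known. Named genes of a list were taken from those called in a comparison (up to 6), or otherwise from those with the smallest p. Not every gene that this rule gave is named. For cell markers they are mostly those with the smallest p, and the Kupffer cell markers are given in full between vehicle and control mice. Genes named outside this rule (Casp1, Nlrp3, Icam1, Cxcl1, Saa1, Saa2, Lcn2) were chosen after their values were seen. A gene named by the rule on likeness is not reported here. Old symbols of the IL-36 genes were matched by hand. The fits were tested on simulated data. Each mouse gave 1 array, so the number of mice limits the precision. Alternatives were another normalization and centring, a filter on dim genes, other variance settings, and leaving out arrays or the mice of 1 set.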

Additional observations from a re-analysis of the deposited data

Results flagged for a closer look

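In vehicle mice, the lowest level of Il1r2, 2.16 in mouse 93, lay far from the other 8 mice of the group, with a gap to its neighbour of 0.538 of the whole range. Of 12 combinations of member and group tested in this way, 1 stood out, and chance gives about 1 in 20.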

How the results depend on the processing

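The members were chosen with the group comparisons known, so nothing is read from their signs or calls in those comparisons. The sign of the nintedanib difference of Il1a was negative in 31 of 31 alternatives. It ran from -1.08 (without mouse 82) to -0.83 (without mouse 89) with 1 mouse left out and from -1.05 to -0.76 otherwise. The number of members called between nintedanib and vehicle mice went from 1 to 0 with the set as a block (2 at an unadjusted p under 0.05 in limma) and to 0 in a limma fit of mice 83 to 94 alone (3 unadjusted), and stayed at 1 whichever mouse was left out. For all genes that count was 92, with 60 without mice 89 and 91, 5 with the block (675 unadjusted), 0 in mice 83 to 94 alone (695 unadjusted) and 49 to 230 with 1 mouse left out. In those 12 mice fewer samples were tested, and 0 pathway genes passed instead of 3 (6 unadjusted), with 3 to 4 when 1 mouse was left out. Between nintedanib and control mice, the call of Il1b was lost in 15 of 22 fits with 1 mouse left out (controls 49 and 50, vehicle mice 76, 77, 79, 81 and 93, nintedanib mice 83 to 90), so members called ranged from 0 to 1, and 0 passed after arrays were centred (3 unadjusted). With 1 mouse left out, pathway genes called ranged from 3 to 7 there against 5, and calls over all genes from 379 to 852 against 784. Between vehicle and control mice the 338 calls became 146 (without control 50) to 418, and the 1 pathway call became 2 without the dimmest 25% of genes, 2 with array weights, 3 with the other group left out and 0 to 3 with 1 mouse left out. Between the vehicle sets the 148 calls became 77 to 126, and the 1 pathway call became 2 with the 9 vehicle mice alone, 0 with centred arrays and 0 to 1 with a mouse left out. The sign turned for Il33 between vehicle and control mice without control 50 (-0.026, against 0.42 without control 49), and for Il18r1 (0.054) and Nlrp12 (0.031) between nintedanib and vehicle mice within mice 83 to 94. Among members with differences near 0, Il1r2 was positive in 21 and negative in 8 of 29 alternatives between vehicle and control mice, and between nintedanib and vehicle mice Il1r2 was positive in 3, Il1rn negative in 3 and Il1rap negative in 1 of 31. Il1r2 was positive in 1 of 30 between nintedanib and control mice, and Il1a and Il1b were each positive in 1 of 11 between the vehicle sets. The cause of these shifts was not tested. No paired analysis was possible because each mouse has its own title number and the groups share none.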

Other observations

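Acute phase genes of hepatocytes, known to answer IL-1 and IL-6, spread more widely between mice than the cytokines did. Saa1 was at 8.71 to 12.2 in controls, 7.13 to 10.7 in vehicle mice and 6.91 to 12.4 in nintedanib mice. Saa2 was at 5.59 to 11.2, 4.96 to 7.77 and 4.48 to 12.2 in the same order. Lcn2 was at 4.19 to 6.89, 3.84 to 5.65 and 4.14 to 9.53. None of the 3 passed between nintedanib and vehicle mice (Saa1 0.63 ± 0.66, Saa2 0.93 ± 0.83, Lcn2 1.03 ± 0.54, limma adjusted p = 0.824, 0.786 and 0.533).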
